A study of Mus musculus with 8 samples.

Results

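A set of 7 noncoding gene models, 5 annotated as pseudogenes (*H2-Ea-ps*, *Atp6v0c-ps2*, *Gm6969*, *Rpl34-ps1* and *Rps13-ps1*) and 2 as lincRNA (long intergenic noncoding RNA) genes (*Gm42031* and *Gm42047*), were followed through 8 RNAseq libraries of the EC-*Tert*-KO study. They are 7 of the 54532 genes in the deposited count table, and all 7 were among the 16971 genes tested, which averaged 10 counts or more per library. They were chosen by name, as the noncoding genes whose counts differed most consistently between KO and WT libraries, and no numeric threshold came with that choice. Their KO to WT differences are therefore given as a description, and no test of them is used as support.

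Each library came from GFP+ (mG+) primary cells isolated by FACS. KO mice were Tie2e-cre; TERTfl/fl; mTmG and WT mice were Tie2e-cre; TERT+/+; mTmG, so that Cre and the membrane reporter mTmG, which turns from red to green fluorescence after Cre acts, were present in both, and the study describes the mice as littermates. All mice were 8 months old. Subcutaneous adipose tissue (SAT) came from mice on a high-fat diet (HFD) and from mice on chow, and visceral adipose tissue (VAT) and skeletal muscle came from mice on chow, giving 4 pairs of 1 WT and 1 KO library. Cre was driven by the Tie2e promoter, which is used for endothelial cells (EC), and neither the labels nor the methods say whether cells of several mice were pooled. Each ratio within a pair thus compares one library with another, with a 95% interval for counting error alone.

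Pseudogenes are gene sequences that no longer encode the usual protein, and many, but not all, are copies of other genes. Processed pseudogenes arise when an mRNA is copied back into the genome, so they lack the introns of the parent gene and can stay nearly identical to its mRNA, which makes short reads from parent and copy hard to separate. *H2-Ea* encodes the alpha chain of the MHC class II E molecule, the partner of the beta chain encoded by *H2-Eb1*. The gene is silent in the C57BL/6 strain, from which the mouse reference genome was made, whereas mice with several other MHC haplotypes express it.

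*Tert*, the targeted gene, had 114 counts in the WT and 0 in the KO library of HFD SAT, 70 and 11 in chow SAT, and 24 and 7 in muscle. For VAT, 3 counts stood in the library labelled WT and 9 in the library labelled KO, so the counts of *Tert* did not follow the labels there, and both VAT libraries are named here as labelled. Library totals lay between 6214269 and 18855772 counts, and 3 counts, the floor used in place of a zero, corresponded to 0.181 to 0.451 CPM (counts relative to library size after TMM scaling). All 10 EC markers checked were detected, with summed levels of 272 to 1905 CPM. Markers of other cells were detected too, with summed macrophage markers at 192 to 9218 CPM and summed B cell markers at 151 to 1810 CPM. Summed neutrophil markers stood apart in muscle, at 12723 CPM in WT and 16534 CPM in KO, against at most 247 CPM in the other libraries. Summed stromal markers were higher in KO in each chow pair, at 526 CPM in WT and 2336 in KO for SAT, 685 and 1459 for VAT, and 427 and 956 for muscle, but not in HFD SAT, at 1569 and 1443. Summed mural markers lay likewise, at 52.1 and 175, 142 and 578, and 133 and 314 in the chow pairs and 131 and 115 in HFD SAT. *H2-Ea-ps* was high in the KO libraries of the chow pairs, at 7 counts or fewer in their WT libraries, and at 0 in both HFD SAT libraries. The part of these markers in the values of the 7 genes was not tested.

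The sequences of the 4 processed pseudogenes were compared with those of their closest protein-coding genes in the GENCODE M21 transcripts (GRCm38), because few differing bases separate their reads. Stretches around these bases are shown 5′ to 3′ on the transcript strand, with the differing bases in capitals. A substitution is written with the base of the parent transcript, the position counted from the first base of the pseudogene transcript, and the base of the pseudogene. *Atp6v0c-ps2* differed from *Atp6v0c* by T111C alone over 465 aligned bases.
Atp6v0c-ps2: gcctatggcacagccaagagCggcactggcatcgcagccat
Atp6v0c: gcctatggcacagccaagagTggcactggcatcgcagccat

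*Gm6969*, whose name gives no parent, matched *Cox7a2l* with 97.7% identity over 342 bases. *Cox7a2l* encodes a factor of respiratory supercomplex assembly, and its C57BL/6 allele is known to carry a short in-frame deletion that other strains lack. *Gm6969* held 6 bases that the reference *Cox7a2l* transcript did not, at positions 214 to 219, followed by T220A, and it also differed by C309T. The extra bases and the adjoining substitution are in capitals here.
Gm6969: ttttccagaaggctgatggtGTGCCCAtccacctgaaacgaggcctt
Cox7a2l: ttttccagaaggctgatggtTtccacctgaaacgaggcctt

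*Rpl34-ps1* differed from *Rpl34*, which encodes a protein of the large ribosomal subunit, by T132C and C318G over 354 aligned bases.
Rpl34-ps1: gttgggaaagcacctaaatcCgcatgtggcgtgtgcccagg
Rpl34: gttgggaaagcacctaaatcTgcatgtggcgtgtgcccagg
Rpl34-ps1: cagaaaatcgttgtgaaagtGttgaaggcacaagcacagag
Rpl34: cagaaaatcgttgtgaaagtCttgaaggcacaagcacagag

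*Rps13-ps1* differed from *Rps13*, which encodes a protein of the small ribosomal subunit, by T442C and A460G over 522 aligned bases.
Rps13-ps1: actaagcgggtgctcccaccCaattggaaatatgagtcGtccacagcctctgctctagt
Rps13: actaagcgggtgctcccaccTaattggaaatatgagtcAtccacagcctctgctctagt

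*H2-Ea-ps* had no near copy, and its closest other gene, *H2-Aa*, matched with only 68.2% identity over 575 bases. The first 90 bases of the annotated coding part, from its other transcript of 1036 bases, are shown as an example of this sequence, without capitals because nothing in them is compared.
H2-Ea-ps: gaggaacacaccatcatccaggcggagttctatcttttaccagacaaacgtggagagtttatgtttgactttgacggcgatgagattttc

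The share of each transcript that occurs in no other annotated gene was then measured in windows of 50, 100 and 150 bases, since the read length is not given in the sources used here. All windows of *H2-Ea-ps* were its own at each length. None of the 305 windows of 50 bases in *Rpl34-ps1* was its own, against 1.57% of windows of 100 bases and 40.5% of windows of 150 bases. For *Rps13-ps1* the shares were 12.1%, 19.1% and 21.6%. *Atp6v0c-ps2* held 9.86%, 27.3% and 35.1%, and *Gm6969* held 30.7%, 53.1% and 66.8%. Thus counts of *H2-Ea-ps* rest on sequence found in no other gene, whereas a read of 50 bases from *Rpl34-ps1* could not be told from one of its copies.

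**Figure D1:**
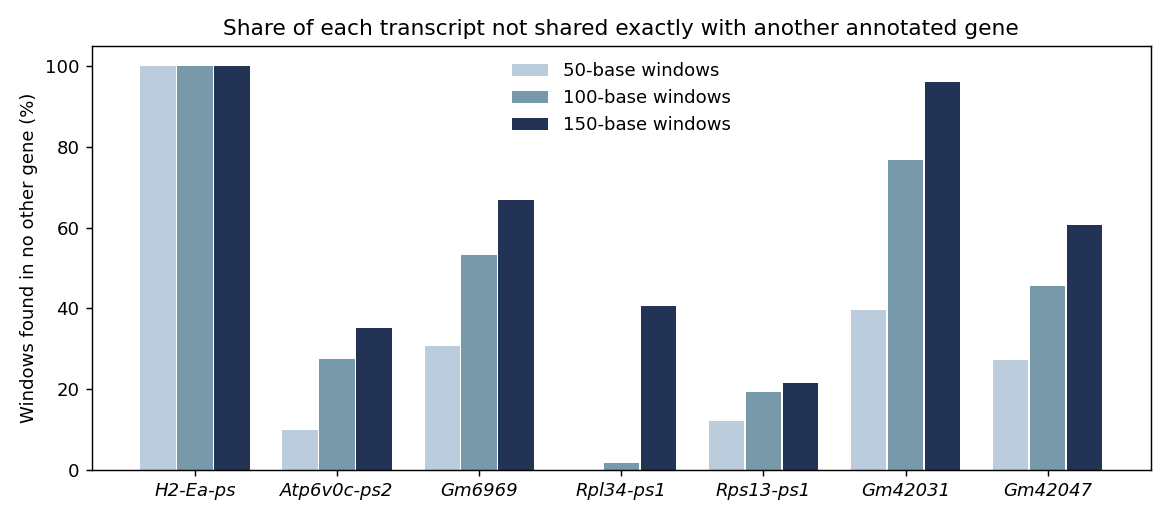
Share of each transcript, in percent of its windows of 50, 100 and 150 bases (light to dark bars), found in no other gene of the GENCODE M21 transcripts. *H2-Ea-ps* reached 100% at each length, while *Rpl34-ps1* held 0% at 50 bases.

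The 2 lincRNA genes shared sequence with other genes as well. *Gm42031* had 39.6% of its windows of 50 bases to itself and *Gm42047* had 27.1%. At 150 bases the shares were 96.1% and 60.6%. Near copies, defined as genes aligned over at least 300 bases with at least 97% identity, numbered 3 for *Gm42031* and 5 for *Gm42047*.

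Of the 7 genes, 3 had every KO library above every WT library in CPM (*Gm6969*, *Rps13-ps1* and *Gm42047*), and 2 had every KO library below every WT library (*Rpl34-ps1* and *Gm42031*). For *Gm42031* this order rests in HFD SAT on library size alone, since both libraries had 1 count, under the floor of 3. Of all genes tested, 0.672% lay wholly above and 0.271% wholly below in this way. Since this contrast chose the genes, nothing is read from the difference. *H2-Ea-ps* and *Atp6v0c-ps2* overlapped through their SAT HFD libraries. With the SAT HFD pair left out, KO and WT libraries did not overlap for any of the 7, beside 3.94% of all genes over those 3 pairs. With the VAT pair left out, whose *Tert* counts were few and not lower in KO, 6 of 7 did not overlap, beside 6.65% of all genes. The number stayed at 5 without the SAT chow pair (4.06% of all genes) and without the muscle pair (4.11%).

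**Figure D2:**
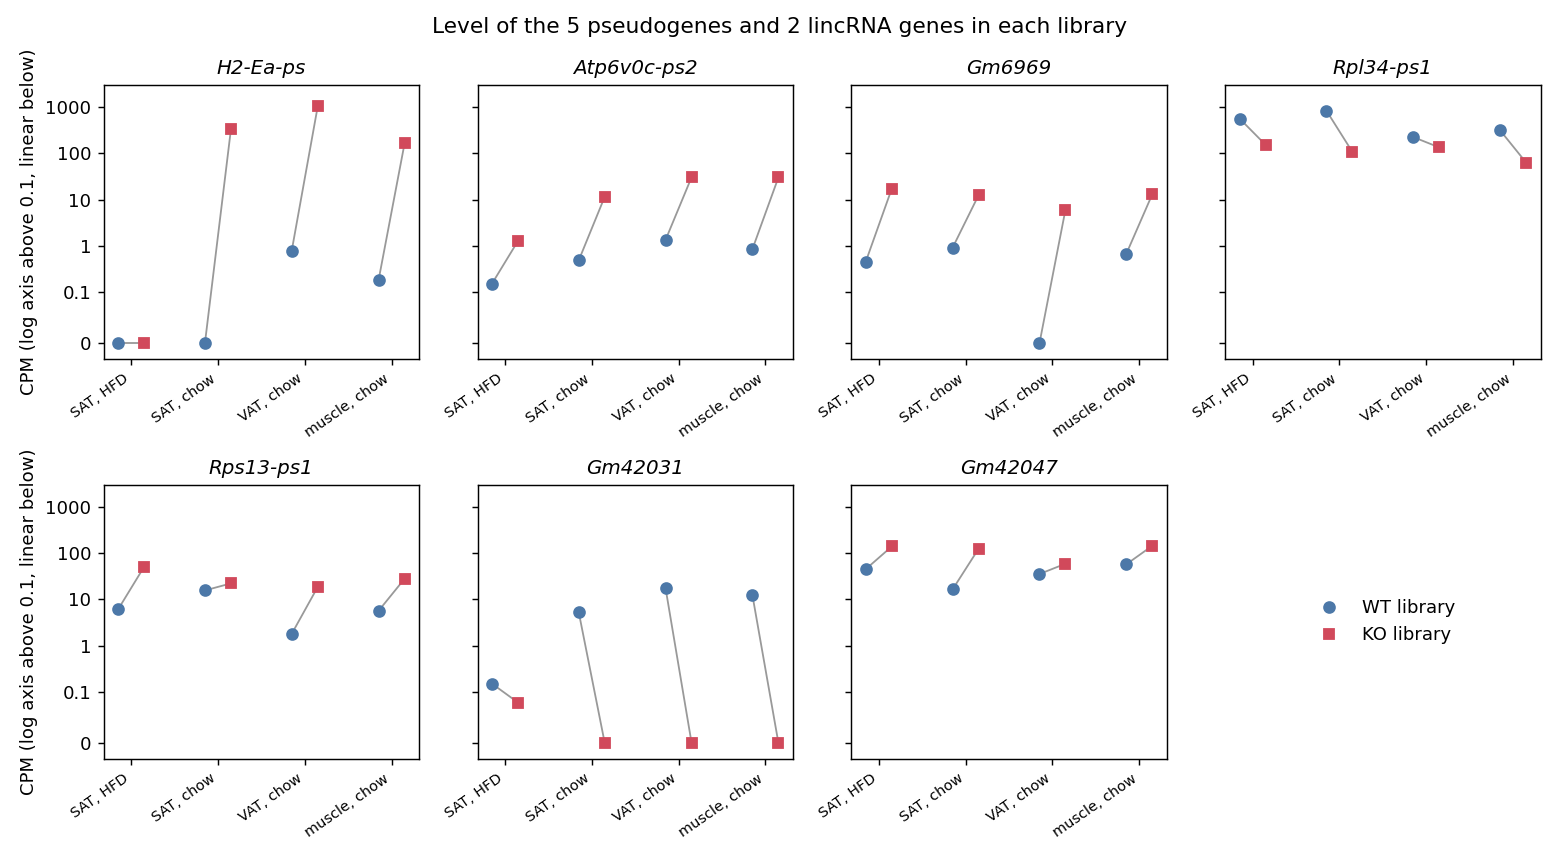
CPM of the 5 pseudogenes and 2 lincRNA genes in each of the 8 libraries, with WT as circles and KO as squares joined within each tissue and diet pair. The axis is logarithmic above 0.1 CPM and linear below. The KO square lies above the WT circle in 4 of 4 pairs for 4 genes and below it in 4 of 4 pairs for *Rpl34-ps1* and in the 3 chow pairs for *Gm42031*, which had 1 count in each HFD SAT library, while *H2-Ea-ps* is at 0 in both libraries of HFD SAT.

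*H2-Ea-ps* (ENSMUSG00000036322) was present at high counts in 3 KO libraries and nearly absent elsewhere. The count table places it on the minus strand of chromosome 17, chr17:34342933-34344643 in GRCm38, as an unprocessed pseudogene. GENCODE M21 calls it a polymorphic pseudogene, with a transcript of 687 bases in 3 exons. In chow SAT its counts were 0 for WT and 5496 for KO, in VAT 7 and 14205, in muscle 3 and 2291, and in HFD SAT 0 in both. The KO libraries of the chow pairs thus reached 166 to 1047 CPM, while no WT library passed 0.784 CPM.

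In chow SAT, with 0 counts in WT, the KO library was 1826-fold higher relative to 3 counts, and the 95% interval began at 1485-fold. The ratio was 1335 in VAT (95% interval 648 to 3322) and 913 in muscle (95% interval 312 to 4431). For HFD SAT no fold can be given, although that KO library held 13167 counts of *H2-Eb1*. There, with 0 counts of *H2-Ea-ps*, the 95% interval reached 0.280 per 1000 counts of *H2-Eb1*.

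Set against *H2-Eb1*, the beta chain gene of the same class II molecule, *H2-Ea-ps* was at nearly one level in the 3 KO libraries that held it. It had 289 counts per 1000 counts of *H2-Eb1* in chow SAT (95% interval 280 to 298), 272 for VAT (267 to 277) and 294 in muscle (281 to 308). Per length, these are ratios of 0.469 to 0.508 of the *H2-Eb1* level. *H2-Eb1* itself spanned 565 to 3849 CPM over these libraries, so *H2-Ea-ps* and *H2-Eb1* varied together among them. In WT libraries of VAT and muscle the values were 0.214 and 0.116 per 1000. In the same 3 KO libraries, *H2-Ea-ps* had 264 counts in chow SAT, 255 in VAT and 278 in muscle per 1000 counts of *H2-Aa*, another class II gene. Per 1000 counts of the invariant chain gene *Cd74* the values were 74.4, 82.3 and 78.5. The steady ratio was thus not particular to *H2-Eb1*.

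**Figure D3:**
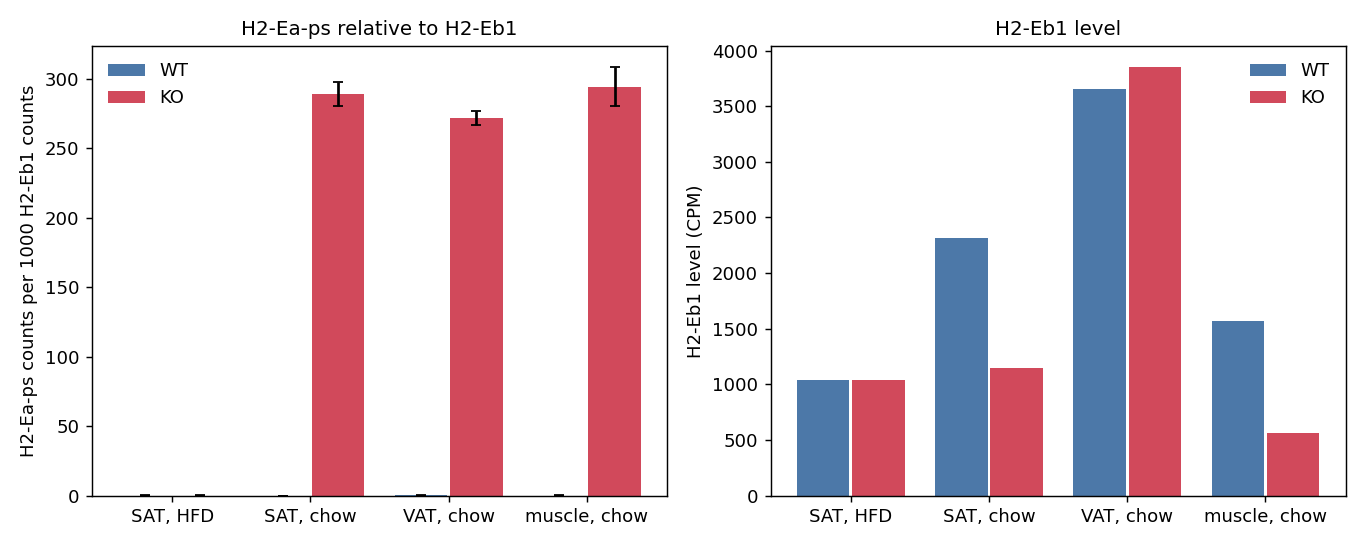
Left, counts of *H2-Ea-ps* per 1000 counts of *H2-Eb1* in each library, with exact 95% intervals for counting error. Right, the level of *H2-Eb1* in CPM. The 3 KO libraries from chow lie at 272 to 294 per 1000 while *H2-Eb1* ranges from 565 to 3849 CPM among them, and the 5 other libraries lie at or near 0.

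The other class II genes had counts in every library of both genotypes. *H2-Eb1* had 6914 counts in WT and 13167 in KO for HFD SAT, 38242 and 19028 for chow SAT, 32648 and 52245 for VAT, and 25927 and 7791 for muscle. Its fitted log2 difference of KO from WT was −0.60 ± 0.36 (SE, n = 4 pairs), with an edgeR quasi-likelihood adjusted p of 0.9999. Of 11 class II genes tested, including the invariant chain gene *Cd74* and the transactivator gene *Ciita*, 0 passed an adjusted p of 0.05 in edgeR and 0 in DESeq2. All 11 fitted values were negative, with a median of −0.51 against 0.02 over all genes tested. At an unadjusted p under 0.05 there was 1 gene in edgeR and 3 in DESeq2, beside 279 and 599 of all 16971 genes tested.

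*H2-DMb1*, a chaperone subunit in class II peptide loading, had the lowest unadjusted p of these, 0.0078 in the edgeR fit, with a log2 difference of −0.91 ± 0.26. Summed macrophage markers were lower in the KO library in 4 of 4 pairs, at 321 to 9218 CPM in WT and 192 to 9092 CPM in KO, and B cell markers were lower in 3 of 4. Summed dendritic cell markers, from another cell type with much class II, were higher in KO in 3 of 4 pairs, at 633 CPM in WT and 732 in KO for HFD SAT, 525 and 1432 for chow SAT, 615 and 620 for VAT, and 507 and 299 for muscle. Their part in the class II values was not tested. In bulk libraries, fewer class II cells and less RNA per cell cannot be told apart.

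The MHC region around *H2-Ea-ps* held some other genes with higher KO counts. Of 109 genes tested within 1 Mb, 4 had an unadjusted p under 0.05 with a higher and 3 with a lower KO level, together 6.42%, against 1.64% of all genes tested. None passed an adjusted p of 0.05 in edgeR and 1, *H2-Q1*, passed in DESeq2. In DESeq2, 11 of the 109 had an unadjusted p under 0.05, beside 599 of all 16971 genes tested. The median fitted log2 difference of the 109 was −0.05, with 45 higher and 64 lower in KO.

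*H2-Q1*, a class Ib MHC gene 0.976 Mb away, had 0 counts in WT and 27 in KO for HFD SAT, 16 and 111 for chow SAT, 4 and 67 for VAT, and 6 and 62 for muscle. *Msh5*, a meiotic MutS homologue gene 684 kb away, had 0 and 31, 24 and 250, 130 and 302, and 64 and 258 in the same order. *Notch4*, an EC receptor gene 220 kb away, had 18 and 171, 147 and 441, 611 and 1017, and 888 and 1135. In CPM the KO library was above the WT library in 4 of 4 pairs for each of these 3, and their fitted log2 differences were 3.67 ± 1.08, 2.49 ± 0.75 and 1.09 ± 0.37, each with an edgeR adjusted p of 0.9999.

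The nearest tested neighbours of *H2-Ea-ps* lay closer. *H2-Eb2*, 2.7 kb away, had a fitted log2 difference of −0.41 ± 0.70, and *Btnl2*, 10.2 kb on the other side, 0.06 ± 0.64. *BC051142*, 54.2 kb away, was at −2.38 ± 2.16. None of these passed, with an adjusted p of 0.9999 each in edgeR.

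By the likeness of log2 CPM over the 8 libraries, the gene nearest to *H2-Ea-ps* was *Gm11127*, a protein-coding gene of chromosome 17 located 1.71 Mb away, with a Pearson r of 0.958. *Gm11127* had 33, 67 and 8 counts in the KO libraries of chow SAT, VAT and muscle and 0 in the other 5. The next by this measure were *Atp6v0c-ps2* (r = 0.946) and *Arhgef17* (r = 0.939). Ranked by Spearman correlation instead, 0 of these 3 genes were among the 3 closest. These values describe 8 libraries that share tissues and genotypes, and carry no test.

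*Atp6v0c-ps2* (ENSMUSG00000080242) was a low-count pseudogene in WT and moderate in KO. It lies on the plus strand at chr6:37806086-37806550 (GRCm38) as a single exon of 465 bases that matches the coding sequence of its parent without the stop codon, and *Atp6v0c* encodes the proteolipid c subunit of the V-ATPase proton channel. Its counts were 1 in WT and 16 in KO for HFD SAT, 8 and 192 for chow SAT, 12 and 414 for VAT, and 14 and 418 for muscle. The ratio of KO to WT was 8.42 in HFD SAT, with a wide 95% interval of 1.31 to 353 because WT had 1 count. It was 23.9 (11.9 to 56.2) in chow SAT, 22.7 (12.9 to 44.3) in VAT and 35.7 (21 to 65.9) in muscle.

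*Atp6v0c* itself did not have higher counts relative to library size in KO. Its counts were 392 in WT and 438 in KO, 1102 and 940, 1348 and 1838, and 1592 and 759 in the same order, lower in KO in CPM in 4 of 4 pairs. Its fitted log2 difference was −0.49 ± 0.22, which did not pass in edgeR (unadjusted p = 0.055, adjusted p = 0.9999). Of 9 V0 subunit genes tested, 0 passed in edgeR or DESeq2 and 0 had an unadjusted p under 0.05 in either, with a median log2 difference of −0.13.

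Shares of the counts of parent and pseudogene together were not corrected for length. On this measure *Atp6v0c-ps2* took 0.254% to 0.882% in WT libraries. In KO libraries it took 3.52% in HFD SAT, 17% in chow SAT, 18.4% in VAT and 35.5% in muscle. The sum of both genes differed little between genotypes in the chow pairs, by 0.02 in SAT, 0.12 in VAT and −0.19 in muscle on the log2 scale, and by −0.72 in HFD SAT. The other named pseudogene of this parent, *Atp6v0c-ps1*, had 0 counts in every library.

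*Gm6969* (ENSMUSG00000066553) lies on the minus strand at chr12:24638669-24639010 (GRCm38), as a single exon of 342 bases. Its counts were 3 in WT and 217 in KO for HFD SAT, 15 and 207 for chow SAT, 0 and 82 for VAT, and 11 and 180 for muscle. KO libraries lay at 6.04 to 17.2 CPM and WT libraries at 0 to 0.907 CPM, so the groups did not overlap. The ratio of KO to WT was 38.1 in HFD SAT (95% interval 12.8 to 186), 13.8 in chow SAT (8.15 to 25) and 19.6 in muscle (10.7 to 39.9). In VAT, with 0 counts in WT, it was 18.0-fold higher in KO relative to 3 counts, and the 95% interval began at 14.3-fold.

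*Cox7a2l*, on chromosome 17, had 1631 counts in WT and 2253 in KO for HFD SAT, 7989 and 2827 for chow SAT, 1264 and 2168 for VAT, and 3401 and 2005 for muscle. Its fitted log2 difference was −0.57 ± 0.30, with an edgeR adjusted p of 0.9999 (unadjusted p = 0.091). *Gm6969* accounted for 0% to 0.322% of the counts of both genes in WT libraries. In KO libraries it accounted for 8.79% in HFD SAT, 6.82% in chow SAT, 3.64% in VAT and 8.24% in muscle. The 0 of 1264 counts in the VAT WT library allows a share of up to 0.237%.

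*Rps13-ps1* (ENSMUSG00000066362) lies on the plus strand at chr8:87047689-87048226 (GRCm38). Its Pearson r with *Gm6969* over the 8 libraries was 0.957, below its r of 0.980 with *Taf3*, a gene outside the set. *Rps13-ps1* and *Gm6969* were both chosen by the KO to WT contrast, so their likeness carries no test. Counts of *Rps13-ps1* were 40 in WT and 635 in KO for HFD SAT, 257 and 366 for chow SAT, 16 and 252 for VAT, and 93 and 385 for muscle. KO libraries lay at 18.6 to 50.3 CPM and WT libraries at 1.79 to 15.5 CPM. The ratio was smallest in chow SAT, at 1.42 (95% interval 1.21 to 1.67), and it was 8.35 (6.06 to 11.8) in HFD SAT, 10.4 (6.26 to 18.4) in VAT and 4.95 (3.94 to 6.28) in muscle.

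*Rps13* itself had 4680 counts in WT and 6443 in KO for HFD SAT, 26093 and 8483 for chow SAT, 2238 and 4550 for VAT, and 8988 and 5073 for muscle. Its fitted log2 difference was −0.56 ± 0.35 (edgeR adjusted p = 0.9999). The pseudogene held 0.710% to 1.02% of the counts of the pair of genes in WT libraries, a narrow range over a wide range of *Rps13* counts. In KO libraries it held 8.97% in HFD SAT, 4.14% in chow SAT, 5.25% in VAT and 7.05% in muscle.

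*Rps13-ps2*, 99.6% identical to *Rps13-ps1* over 453 bases, lay lower in KO in CPM in 4 of 4 pairs. Its counts were 66 in WT and 53 in KO for HFD SAT, 185 and 111 for chow SAT, 80 and 64 for VAT, and 80 and 36 for muscle, with a fitted log2 difference of −0.95 ± 0.49 (edgeR adjusted p = 0.9999). *Rps13-ps4*, 99.3% identical, had 0 and 72, 16 and 20, 1 and 0, and 3 and 10, and its fitted log2 difference of 1.55 ± 1.98 did not pass either (edgeR adjusted p = 0.9999).

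*Rpl34-ps1* (ENSMUSG00000068396) had counts assigned to it in all 8 libraries, and these were lower in KO relative to library size. It lies on the plus strand at chr6:71124610-71124963 (GRCm38). Its counts were 3737 in WT and 1916 in KO for HFD SAT, 13776 and 1763 for chow SAT, 2001 and 1814 for VAT, and 5161 and 866 for muscle. In CPM the WT libraries lay at 224 to 833 and the KO libraries at 62.8 to 152. KO was 3.71-fold lower in HFD SAT (95% interval 3.51 to 3.92), 7.84-fold lower in chow SAT (7.46 to 8.24), 1.68-fold lower for VAT (1.57 to 1.79) and 4.98-fold lower in muscle (4.64 to 5.36).

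*Rpl34*, on chromosome 3, had 914 counts in WT and 5113 in KO for HFD SAT, 10671 and 7453 for chow SAT, 1235 and 3564 for VAT, and 4587 and 5213 for muscle. In CPM its KO library was above WT in 3 of 4 pairs, with a fitted log2 difference of 0.60 ± 0.35 (edgeR adjusted p = 0.9999, unadjusted p = 0.125). *Rpl34-ps1* took 80.3% of the counts of both genes in the WT library of HFD SAT, 56.4% in chow SAT, 61.8% in VAT and 52.9% in muscle. In KO libraries it took 27.3%, 19.1%, 33.7% and 14.2% in the same order. The pseudogene thus held the larger part in each WT library and the smaller part in each KO library.

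The sum of *Rpl34* and *Rpl34-ps1* differed between genotypes much as *Rps13* with its pseudogene did. On the log2 scale the sum of the *Rpl34* genes differed by −0.33 in HFD SAT, −1.41 in chow SAT, 0.13 in VAT and −0.42 in muscle. The sum of the *Rps13* genes differed by −0.34, −1.58, 0.49 and −0.48. For 80 cytosolic ribosomal protein genes the median log2 differences were −0.24, −1.53, 0.25 and −0.43 in the same order. None of the 80 passed in edgeR or DESeq2 across the pairs, with 1 at an unadjusted p under 0.05 in edgeR and 3 in DESeq2. Their median fitted difference was −0.48.

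Other near copies of *Rpl34-ps1* had few counts. *Gm10154* had 18 counts in WT and 198 in KO for HFD SAT, 203 and 161 for chow SAT, 50 and 50 for VAT, and 97 and 69 for muscle, with a fitted log2 difference of 0.25 ± 0.66 (edgeR adjusted p = 0.9999). *Gm4705* had between 8 and 38 counts per library, and *Gm10086* and *Rpl34-ps2* had at most 1 and 6.

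**Figure D4:**
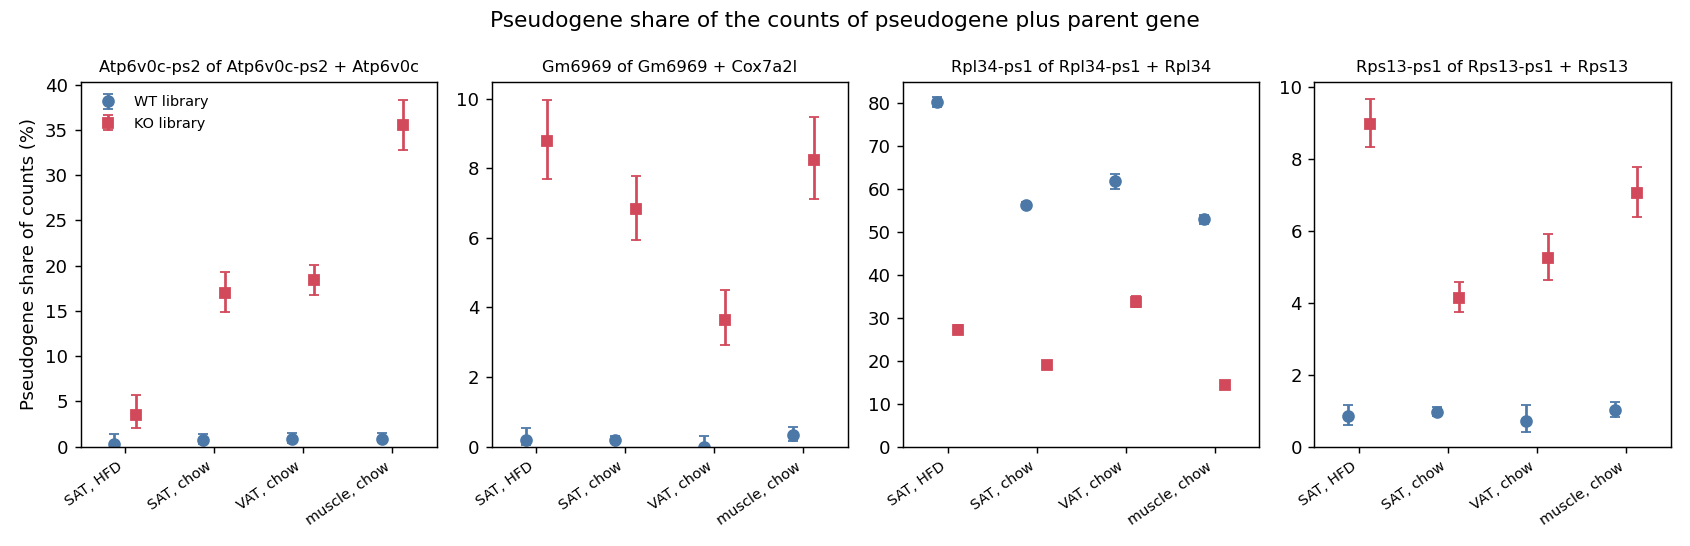
Percent of the summed counts of pseudogene and parent gene that were assigned to the pseudogene, per library, with exact 95% intervals for counting error; vertical scales differ between panels. KO squares lie above WT circles in each pair for *Atp6v0c-ps2*, *Gm6969* and *Rps13-ps1* and below them in each pair for *Rpl34-ps1*.

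*Gm42031* (ENSMUSG00000110386), a lincRNA gene of 2 exons on the minus strand at chr8:85125872-85132289 (GRCm38), had 0 counts in 3 KO libraries. Its counts were 87 in WT and 0 in KO for chow SAT, 154 and 0 for VAT, and 202 and 0 for muscle. Relative to 3 counts, KO was at least 29.1-fold lower in chow SAT, at least 78-fold lower in VAT and at least 56.3-fold lower in muscle. In HFD SAT both libraries had 1 count, and no fold can be given. The WT library of that pair, with 6214269 counts in all, thus lay apart from the other WT libraries, which held 5.26 to 17.2 CPM.

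Its near copies were expressed in both genotypes. *Gm43305*, a gene 98.7% identical over 748 bases, had 229 to 1812 counts per library and a fitted log2 difference of 0.56 ± 0.30. The values were 0.33 ± 0.25 for *Chd9*, a chromatin remodeller gene, and 0.14 ± 0.22 for *AI506816*. The 3 genes aligned over only 748, 337 and 330 of the 1885 bases in *Gm42031*, shared stretches and not copies of the whole transcript. None of the 3 passed, with an edgeR adjusted p of 0.9999 each.

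*Gm42047* (ENSMUSG00000110631), a lincRNA gene of 4 exons on the plus strand at chr8:121833247-121841178 (GRCm38), had counts in all 8 libraries and was higher in KO. Its counts were 297 in WT and 1754 in KO for HFD SAT, 270 and 2059 for chow SAT, 314 and 796 for VAT, and 938 and 1982 for muscle. WT libraries lay at 16.3 to 56.9 CPM and KO libraries at 58.6 to 144 CPM, so the gap between the groups was narrow. The ratio of KO to WT was 3.11 in HFD SAT (95% interval 2.75 to 3.53), 7.60 in chow SAT (6.69 to 8.66), 1.67 for VAT (1.46 to 1.91) and 2.53 in muscle (2.34 to 2.73). Its 5 near copies, at 98.3% to 99.6% identity, had at most 6 counts in any library. An overlapping gene model, *Gm20388*, had 0 counts.

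Within a pair, the number of the 7 genes whose 95% interval lay beyond 2-fold was 3 higher and 1 lower in KO for HFD SAT, 4 and 2 for chow SAT, 4 and 1 for VAT, and 5 and 2 for muscle. Among all genes averaging 10 counts or more in the pair, 12.7% were higher and 11.1% lower in HFD SAT, together 23.8%. The shares were 19.0% and 11.7% in chow SAT (30.7%), 2.40% and 2.09% in VAT (4.50%), and 2.75% and 2.05% in muscle (4.79%). In 4 of 4 pairs KO was higher in CPM for 4 of the 7 and lower for *Rpl34-ps1*, and for *Gm42031* it was lower in 3 pairs, with 1 count in each library of the other. Higher or lower in 4 of 4 pairs in CPM were 5.03% and 4.53% of all genes tested, where *Gm42031* counts as lower.

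Across the pairs, 1 gene of 16971 (0.00589%) had an adjusted p under 0.05 in edgeR for KO against WT, and it was *H2-Ea-ps*. It is given as the background for the tests of other genes. The number was 0 without the VAT pair (293 at an unadjusted p under 0.05) and 2 without the muscle pair. In DESeq2 it was 19 (599 at an unadjusted p under 0.05). Since the contrast chose the genes, this adds nothing to the counts above. The fitted log2 differences were 10.75 ± 0.67 for *H2-Ea-ps*, 4.78 ± 0.80 for *Gm6969*, 4.55 ± 0.54 for *Atp6v0c-ps2*, 2.30 ± 0.52 for *Rps13-ps1*, 1.65 ± 0.36 for *Gm42047*, −1.99 ± 0.38 for *Rpl34-ps1* and −7.71 ± 1.74 for *Gm42031* (SE, n = 4 pairs). Those of *H2-Ea-ps* and *Gm42031* are not bounds, since most libraries of one genotype were at or near 0.

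No test of levels between tissues and diets is used for the 7 genes, because their choice by consistent KO to WT differences bears on their spread between pairs. Of the 4 parents, which were not chosen in this way, *Atp6v0c* passed an adjusted p of 0.05 between tissues and diets (edgeR adjusted p = 0.043), beside 7.83% of all genes tested. Without the VAT pair the adjusted p was 0.816, and it was 0.126 without the SAT HFD pair and 0.055 without the muscle pair. It also missed the threshold with library totals (adjusted p = 0.0697) and without a genotype term (adjusted p = 0.064), and passed in DESeq2. *Cox7a2l*, *Rpl34* and *Rps13* did not pass, with edgeR adjusted p of 0.440, 0.238 and 0.240.

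The neighbourhoods of the 7 genes were examined next, through the 3 nearest tested genes on each side. Of these 42 neighbours, 0 passed for KO against WT in edgeR and 0 in DESeq2. At an unadjusted threshold of 0.05 there was 1 in edgeR, *Notch4*, and 1 in DESeq2. Fitted log2 differences of the neighbours ran from −2.38 to 1.09, with a median of −0.05. *Thnsl2*, 3.2 kb from *Rpl34-ps1*, was at −0.16 ± 2.15, *Klhdc4*, 3.68 kb from *Gm42047*, at −0.07 ± 0.24, and *Klf11*, 12.3 kb from *Gm6969*, at 0.36 ± 0.35. The edgeR adjusted p was 0.9999 for each of them. A large difference can miss the threshold here, since *Gm6969*, at a fitted 4.78, also had an edgeR adjusted p of 0.9999. A gene that did not pass is thus not read as unchanged.

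**Figure D5:**
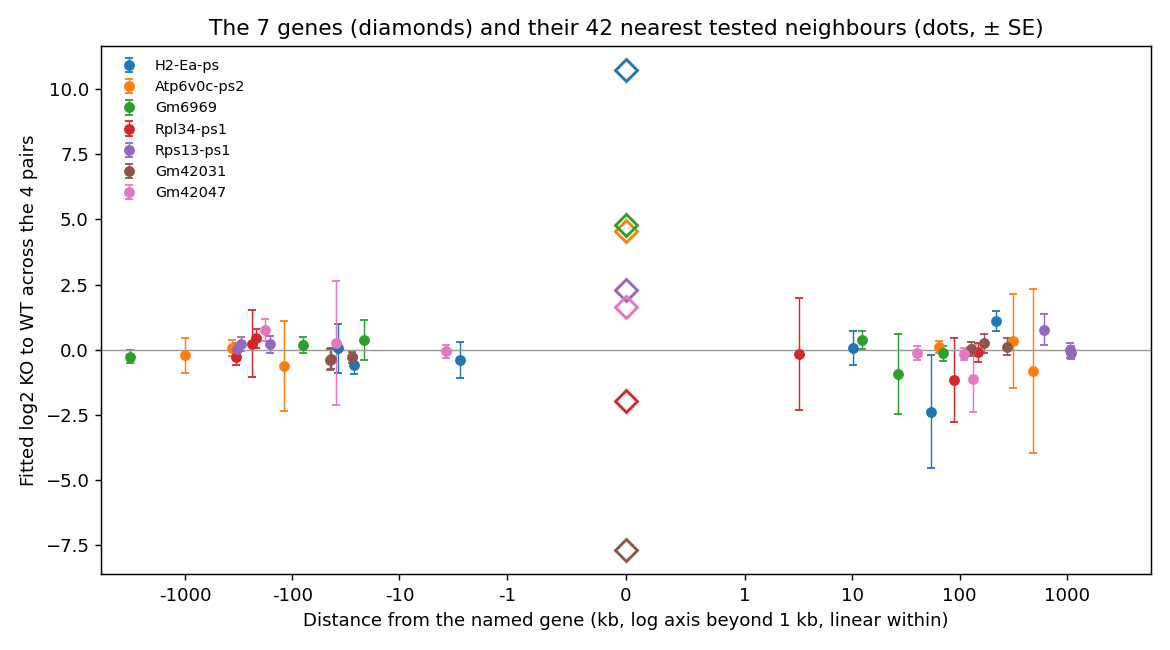
Fitted log2 difference of KO from WT across the 4 pairs (vertical axis) for the 7 genes, drawn as diamonds at 0 kb, and for the 3 nearest tested neighbours on each side, drawn as dots with SE against distance in kb (log axis beyond 1 kb). The neighbours lie between −2.38 and 1.09, while the 7 genes lie between −7.71 and 10.75.

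By annotated position the 7 genes lie on 4 chromosomes. These are chromosome 8 with 3, chromosome 6 with 2, and chromosomes 12 and 17 with 1 each. None lies on chromosome 13, where *Tert* lies. Reads of the processed pseudogenes are hard to tell from those of their parents, which lie elsewhere. *Atp6v0c* and *Cox7a2l* are on chromosome 17, as *H2-Ea-ps* is, *Rpl34* on chromosome 3 and *Rps13* on chromosome 7. Of 55 genes tested within 5 Mb of *Tert*, 0 passed in edgeR or DESeq2 and 0 had an unadjusted p under 0.05 in either, with a median log2 difference of −0.02. The same held for 7 tested genes listed as differing between laboratory strains, at 0 in both tools and 0 unadjusted. *Nnt*, which lacks exons in the C57BL/6J substrain, had 0 counts in WT and 37 in KO for HFD SAT, 9 and 24 for chow SAT, 17 and 14 for VAT, and 16 and 8 for muscle. *Glo1*, duplicated in some strains, had a fitted log2 difference of 0.08 ± 0.32 (edgeR adjusted p = 0.9999). Whether strain background or the assignment of reads between copies had a part in the values of the 7 genes was not tested.

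Pseudogenes and lincRNA genes were also examined as classes. Of 846 other pseudogenes tested, 7 had every KO library above and 7 every KO library below WT, together 1.65%, against 0.943% of all genes tested. Of 392 other lincRNA genes the share was 1.02%, with 3 above and 1 below. None of the 846 passed in edgeR (16 at an unadjusted p under 0.05, against 38 in DESeq2) and 2, *Gm9825* and *9130208D14Rik*, passed in DESeq2. None of the 392 passed in either tool, with 0 at an unadjusted p under 0.05 in edgeR and 13 in DESeq2. Of all 16971 genes tested, 279 in edgeR and 599 in DESeq2 had an unadjusted p under 0.05.

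*Gm9825* had 2 counts in WT and 26 in KO for HFD SAT, 8 and 156 for chow SAT, 6 and 71 for VAT, and 1 and 124 for muscle, and its fitted log2 difference was 4.10 ± 1.06 (edgeR adjusted p = 0.9999). Among 83 other ribosomal pseudogenes, 0 passed in edgeR or DESeq2, and 5 had an unadjusted p under 0.05 in edgeR, all lower in KO, against 10 in DESeq2. Their median log2 difference, −0.50, lay near that of the ribosomal protein genes.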

How the data were processed

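RNAseq of FACS-sorted GFP+ cells in 8 libraries was analysed. The authors deposited whole-number read counts per Ensembl gene, with no normalization. The submitters' processing notes name HISAT2 2.0.5 and GRCm38 (mm10); the counting program, read length and use of strand are not given in the sources used here. Libraries were scaled by TMM with factors computed over genes averaging 10 counts or more, and genotypes were compared with edgeR 4.0.16 (quasi-likelihood, robust), with tissue and diet pair as a block and Benjamini-Hochberg adjustment at 0.05 over 16971 genes. SE is the fitted difference divided by the square root of F. With 1 library per group, p-values measure the spread between these pairs. DESeq2 1.42.0, other scalings, filters and prior counts, and leaving out each pair were the alternatives.

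Ratios within a pair are of TMM-scaled CPM, with exact conditional binomial 95% intervals; log2 values use a prior count of 0.5. A zero is replaced by 3 counts to give a fold. Shares have Clopper-Pearson intervals, and intervals cover counting error only. Transcripts were compared with GENCODE M21 by BLAST 2.17.0 and Biopython 1.88. Named besides the 7 genes are *Tert*, parents, pseudogenes of the same parents, near copies, the 3 nearest tested genes on each side, the 3 most similar genes, and up to 4 genes per list by lowest unadjusted p. Members and lists were chosen with earlier results of these data known; near copies and windows, and the parent of *Gm6969*, were chosen after seeing the data.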

Additional observations from a re-analysis of the deposited data

How the results depend on the processing

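For KO against WT, 1 gene passed in edgeR with TMM, with DESeq2 size factors, with library totals and with a mean of at least 50 counts. With all genes of at least 1 count 41 passed, in DESeq2 19, and without the block 0 (125 at an unadjusted p under 0.05). Leaving out each pair gave 0 to 2; without the VAT pair it was 0, with 293 at an unadjusted p under 0.05. Between tissues and diets 1328 of all genes passed, against 3262 with all genes of at least 1 count and 3339 in DESeq2, and 381 to 3081 when each pair was left out, lowest without VAT and highest without chow SAT. The number of the 7 genes without overlap was 5 and ran from 5 to 7 when each pair was left out, an alternative added after seeing the data. The fitted differences of the 7 genes kept their sign in each alternative run, at 10.02 to 11.18 for *H2-Ea-ps*, 4.38 to 5.21 for *Gm6969*, 4.2 to 4.74 for *Atp6v0c-ps2*, 1.97 to 2.89 for *Rps13-ps1*, 1.25 to 1.97 for *Gm42047*, −2.38 to −1.65 for *Rpl34-ps1* and −10.31 to −6.59 for *Gm42031*. Library totals moved the share of genes higher in KO among those beyond 2-fold in chow SAT, from 62% to 77.5%, and in muscle, from 57.3% to 70.2%. Near copies in the denominator, also added after seeing the data, left the median share of *Rpl34-ps1* at 58.3% in WT and 22.6% in KO, against 59.1% and 23.2%. The causes were not tested. With 1 library per genotype in a pair, and several WT libraries at under 20 counts of *H2-Ea-ps*, *Atp6v0c-ps2* and *Gm6969*, depth limits the precision of these ratios.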

Other observations

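By Pearson correlation of log2 CPM, the following genes outside the set were closest to its members. *Taf3*, which encodes a TFIID subunit, had a Pearson r of 0.980 with *Rps13-ps1* and 0.95 with *Gm6969* over the 8 libraries, with 179 counts in WT and 447 in KO for HFD SAT, 463 and 517 for chow SAT, 200 and 405 for VAT, and 414 and 433 for muscle. *Mrps22*, a mitochondrial ribosomal protein gene, had r = 0.948 with *Rpl34-ps1*, and *Slc4a3*, an anion exchanger gene, had r = 0.949 with *Atp6v0c-ps2*. For *Gm42031* the highest Pearson r was that of *Cnbd2* (r = 0.931), and for *Gm42047* that of *Prr14l* (r = 0.935). With Spearman correlation, 0 of the 3 closest genes were shared for *H2-Ea-ps*, *Atp6v0c-ps2*, *Gm42031* and *Gm42047*, and 2 of 3 for *Gm6969*, *Rpl34-ps1* and *Rps13-ps1*. The libraries share tissues and genotypes, so these values describe likeness and carry no test.

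Another pseudogene, *9130208D14Rik*, had 2 counts in WT and 139 in KO for HFD SAT, 8 and 70 for chow SAT, 7 and 52 for VAT, and 6 and 61 for muscle, with a fitted log2 difference of 3.46 ± 0.92 (edgeR adjusted p = 0.9999).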
